A study of Mus musculus with 4 samples.

Results

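The Gimap genes encode the GTPases of immunity-associated proteins, a family of lymphocyte survival GTPases. The 8 members described here, Gimap1, Gimap3, Gimap4, Gimap5, Gimap6, Gimap7, Gimap8 and Gimap9, were chosen by name among the 19339 genes listed in each library, and all 8 passed the filter on low values that left 12009 genes for testing. They were measured by RNA-seq in TCRαβ+CD8αα+ intraepithelial lymphocytes (IELs), T cells lodged between gut epithelial cells, with an αβ T cell receptor and CD8αα homodimers. The control group held Kdm6bfl/fl mice, whose Kdm6b alleles are flanked by loxP sites. The Kdm6b-deficient group held Kdm6bfl/fl-CD4Cre mice, in which the same floxed alleles are deleted by a CD4Cre transgene that is active in T cells from the late double-negative thymocyte stage. Kdm6b is a demethylase of trimethylated lysine 27 of histone H3, a mark of repressed genes, and the comparison asks what its loss in T cells changes in these IELs. All mice were C57BL/6, their age is not given in the sources used here, and the small intestinal cells were sorted as CD45+CD4-TCRβ+CD8α+CD8β-. Each library held RNA pooled from 3 mice of a genotype, and 2 libraries of each group, numbered 1 and 3, were analysed. Their values are FPKM, fragment counts scaled to transcript length and to the size of the library.

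Gimap proteins share a GTP-binding domain of the AIG1 type and sit on intracellular membranes, among them those of mitochondria, the endoplasmic reticulum and lysosomes. The genes lie side by side in a single cluster and are expressed mostly in lymphocytes. Mice and rats without functional Gimap5 lose peripheral T cells, and mice without Gimap1 lack mature T and B cells. Several members bind proteins of the Bcl-2 family, which set the threshold for apoptosis.

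The coding sequences show both what unites the members and where their reads can be confused. Each of the 8 holds at least 1 in-frame P-loop, the glycine-rich turn that grips the phosphates of GTP, read here as 8 codons for glycine, any 4 amino acids, glycine, lysine, and serine or threonine. Gimap8 holds 3 of them, so that 10 were found in all. They are shown to let the paralogs be compared directly, taken from the GENCODE vM21 transcripts, with 24 P-loop bases in capitals and 15 bases of coding sequence on either side.
Gimap1: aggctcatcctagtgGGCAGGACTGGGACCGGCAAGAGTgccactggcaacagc
Gimap3: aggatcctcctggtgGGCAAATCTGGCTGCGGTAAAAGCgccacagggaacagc
Gimap4: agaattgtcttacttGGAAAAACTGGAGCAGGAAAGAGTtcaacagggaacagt
Gimap5: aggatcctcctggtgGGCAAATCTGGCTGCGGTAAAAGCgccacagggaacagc
Gimap6: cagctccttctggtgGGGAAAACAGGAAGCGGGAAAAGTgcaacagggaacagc
Gimap7: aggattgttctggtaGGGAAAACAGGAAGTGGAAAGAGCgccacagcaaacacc
Gimap8, first: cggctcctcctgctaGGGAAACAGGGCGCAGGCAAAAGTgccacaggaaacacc
Gimap8, second: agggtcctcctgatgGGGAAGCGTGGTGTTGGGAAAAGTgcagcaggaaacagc
Gimap8, last: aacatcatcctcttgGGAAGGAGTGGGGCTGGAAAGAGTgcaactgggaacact
Gimap9: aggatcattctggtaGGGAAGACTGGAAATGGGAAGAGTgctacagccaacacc

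Gimap3 and Gimap5 had 0 differences over these 54 bases, whereas each of the other 8 windows differed from Gimap5 at 12 to 21 positions. Over the whole coding sequence Gimap3 and Gimap5 were 90.3% identical at 898 aligned bases. The other 20 pairs that leave out the long Gimap8 were 55.9% to 68.0% identical. Of the 50-base stretches of their transcripts, 9.98% of Gimap5 and 9.83% of Gimap3 occurred also in a transcript of another gene, in Gimap5 only in Gimap3 beside a readthrough locus. That share was 2.49% for Gimap1 and 0 for Gimap4, Gimap6, Gimap7, Gimap8 and Gimap9, again leaving out the readthrough locus. How RSEM divided reads between Gimap3 and Gimap5 could shift their separate values, so their sum is given too. The readthrough locus Gm28053 (chr6:48718607-48752644, + strand) joins Gimap7, Gimap1 and Gimap5, and held 2.62%, 10.3% and 5.51% of their 50-base stretches. The antisense gene Gimap1os (chr6:48738346-48741444) overlaps part of Gimap1. The sources used here do not say whether the libraries kept strand, so reads from the overlapping part may not be told apart.

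Before the members are compared, the libraries themselves need description. Kdm6b, the deleted gene, had 16.5 and 16.01 FPKM in control replicates 1 and 3, and 18.2 and 11.1 FPKM in the Kdm6b-deficient-labelled libraries replicates 1 and 3. Its log2 fold change was −0.18 (SE 0.29, adjusted p = 0.886 from limma). Since the library labelled Kdm6b-deficient replicate 1 had no less Kdm6b than the controls, libraries are named by their labels throughout. A gene-level FPKM does not show whether the floxed exons were deleted, so this value does not tell whether that library kept functional Kdm6b. The geometric mean of Cd3d, Cd3e, Cd3g and Ptprc, a component set of the T cell receptor complex and the pan-leukocyte antigen CD45, was 639 and 518 FPKM in control replicates 1 and 3, and 518 and 371 FPKM in the Kdm6b-deficient-labelled libraries replicates 1 and 3. Markers of intestinal epithelium ran the other way. The mean log2(FPKM + 1) over their list of 22 genes, the epithelial score, was 5.33 and 6.88 in the controls and 6.72 and 7.99 in the libraries labelled Kdm6b-deficient. By this score control replicate 3 stood above the library labelled Kdm6b-deficient replicate 1. Their sum was 2180 and 6384 FPKM in the controls and 8046 and 11848 FPKM in the Kdm6b-deficient-labelled libraries. Reg3g, the list's highest gene by mean FPKM, weighed on that sum. It had 781 and 1976 FPKM in the controls and 3974 and 1081 FPKM in the Kdm6b-deficient-labelled libraries. Conventional T cell markers followed the replicate number, as their 9 genes summed to 142 and 75.5 FPKM in control replicates 1 and 3, and to 187 and 33.4 FPKM in the Kdm6b-deficient-labelled libraries replicates 1 and 3. Cd8b1, which the sort selected against, was at 0 to 1.64 FPKM in the 4 libraries. In bulk RNA, fewer cells of a type and less RNA per cell cannot be told apart, and this applies to every value below.

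Gimap1, Gimap5 and Gimap3 are the members with the clearest ties to survival. Gimap1 (Entrez 16205, chr6:48739047-48743795 of GRCm38, + strand), which mature T and B cells need to persist, had 373 and 251 FPKM in control replicates 1 and 3. Its levels were 293 and 188 FPKM in the Kdm6b-deficient-labelled libraries replicates 1 and 3, so the groups overlapped. Its log2 fold change was −0.38 (SE 0.31, 95% CI −1.15 to 0.39, adjusted p = 0.785 from limma). Gimap5 (Entrez 317757, chr6:48746197-48754200, + strand), a lysosomal member whose loss causes lymphopenia, had 104 and 77.9 FPKM in the controls and 78.6 and 52.1 FPKM in the Kdm6b-deficient-labelled libraries. The inner values of its groups, 77.9 and 78.6 FPKM, were nearly the same. The log2 fold change of Gimap5 was −0.49 (SE 0.27, 95% CI −1.16 to 0.19, adjusted p = 0.755). Gimap3 (Entrez 83408, chr6:48764464-48770851, − strand), a mitochondrial paralog of Gimap5, had 449 and 333 FPKM in the controls. In the libraries labelled Kdm6b-deficient it had 410 and 238 FPKM, with replicate 1 well above control replicate 3. The corresponding log2 fold change was −0.31 (SE 0.32, 95% CI −1.1 to 0.49, adjusted p = 0.828), the smallest of the family. Gimap3 and Gimap5 together had 553 and 411 FPKM in the controls and 488 and 290 FPKM in the Kdm6b-deficient-labelled libraries. The group means of log2(FPKM + 1) of their sum differed by −0.34. The ratio of Gimap3 to Gimap5 stayed between 4.27 and 5.21 in the 4 libraries.

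Gimap4 and Gimap6 were the most abundant members. Gimap4 (Entrez 107526, chr6:48684578-48692062, + strand), which hastens the death of T cells already committed to apoptosis, had 715 and 615 FPKM in control replicates 1 and 3. Its levels were 650 and 375 FPKM in the Kdm6b-deficient-labelled libraries replicates 1 and 3, with replicate 1 between the 2 controls. The log2 fold change of Gimap4 was −0.42 (SE 0.31, 95% CI −1.20 to 0.35, adjusted p = 0.773 from limma). Gimap6 (Entrez 231931, chr6:48701583-48708244, − strand), which binds the autophagy protein GABARAPL2, had 586 and 490.4 FPKM in the controls. In the libraries labelled Kdm6b-deficient it had 489.5 and 248 FPKM. Gimap6 was the 1 member whose groups did not overlap. Of all genes tested, 18.6% were likewise lower in both libraries labelled Kdm6b-deficient and 18.4% were higher in both. For Gimap6 the gap between control replicate 3 and the library labelled Kdm6b-deficient replicate 1 was under 1 FPKM. Its log2 fold change, −0.62 (SE 0.35, 95% CI −1.5 to 0.26, adjusted p = 0.755), was the most negative of the family and did not pass the test.

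Gimap7, Gimap9 and Gimap8 completed the family. Gimap7 (Entrez 231932, chr6:48718621-48724636, + strand), an active GTPase that can stimulate GTP hydrolysis by other members, had 320 and 263 FPKM in the controls and 285 and 160 FPKM in the Kdm6b-deficient-labelled libraries. Its log2 fold change was −0.44 (SE 0.31, adjusted p = 0.770 from limma). Gimap9 (Entrez 317758, chr6:48676121-48679116, + strand) had 163 and 135 FPKM in the controls and 160 and 84.2 FPKM in the Kdm6b-deficient-labelled libraries, so both replicates 1 were alike. This gave a log2 fold change of −0.35 (SE 0.33, adjusted p = 0.810). Gimap8 (Entrez 243374, chr6:48647186-48660875, + strand), the long member with 3 P-loops and a coding sequence of 2067 bases, was the least abundant. It had 37.05 and 24.4 FPKM in the controls and 25.6 and 16.4 FPKM in the Kdm6b-deficient-labelled libraries. Its log2 fold change was −0.53 (SE 0.32, adjusted p = 0.757).

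**Figure D1:**
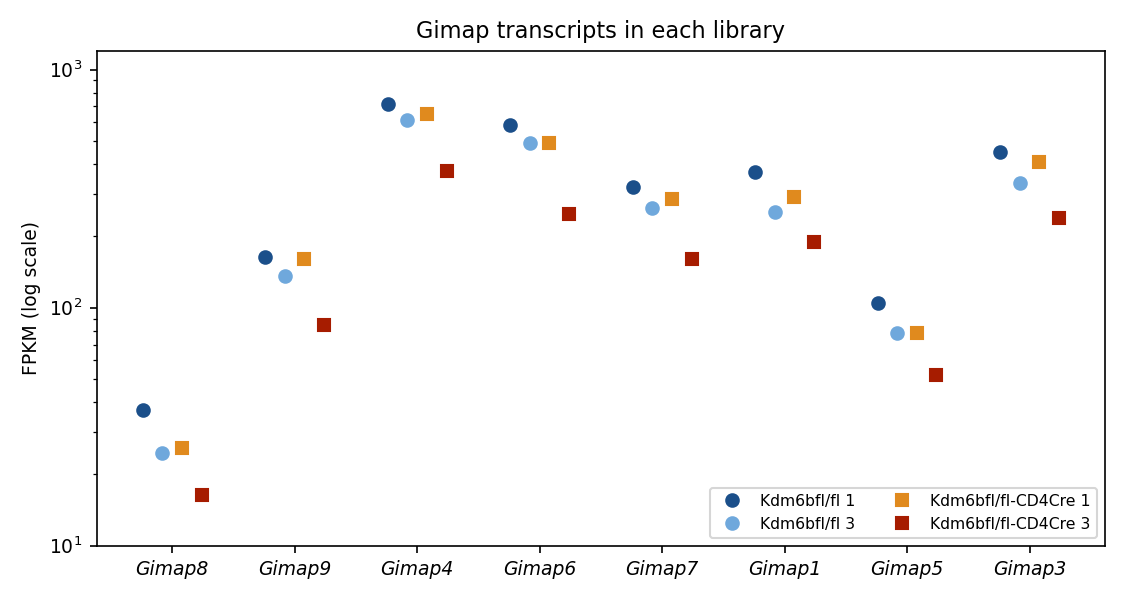
FPKM of each Gimap gene on a log scale, in cluster order, with 1 point per library (circles, control Kdm6bfl/fl replicates 1 and 3; squares, Kdm6b-deficient Kdm6bfl/fl-CD4Cre replicates 1 and 3; no error bars, since each point is 1 library). In all 8 genes control replicate 1 is the highest point and the library labelled Kdm6b-deficient replicate 3 the lowest, and in 7 the library labelled Kdm6b-deficient replicate 1 lies above control replicate 3.

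Across the family, 0 of the 8 members passed limma at an adjusted p under 0.05, against 0.0% of the 12009 genes tested. None of the 8 reached an unadjusted p under 0.05 either, which 642 genes (5.35%) did, and the members' unadjusted p ran from 0.124 to 0.376. None had a log2 fold change below −1, where 0.441% of genes lay. All 8 log2 fold changes were negative, against 49.9% of genes, and they ran from −0.62 to −0.31 with a median of −0.43, against 0.00 over all genes tested. With SEs of 0.27 to 0.35, these differences were within what the spread between the libraries of a group allows. Gimap6 alone (1 of 8) was lower in both libraries labelled Kdm6b-deficient than in both controls, against 18.6% of genes. The family median depended on single libraries, being −0.05 without the library labelled Kdm6b-deficient replicate 3, −0.82 without Kdm6b-deficient replicate 1, −0.26 without control replicate 1 and −0.62 without control replicate 3. Without Kdm6b-deficient replicate 1 all 8 members were lower with no overlap between the groups, as were 39.4% of genes in those 3 libraries, and without control replicate 3 all 8 were too, as were 36.5% of genes. Exact permutation of 2 libraries against 2 can reach a two-sided p of 0.333 at best for any member, so none was tested that way.

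The members moved together from library to library more than they separated the groups. All 8 were highest in control replicate 1 and lowest in the library labelled Kdm6b-deficient replicate 3, an order that 18.1% of genes showed. Between same-numbered libraries, all 8 were lower in the one labelled Kdm6b-deficient both times, as were 31.2% of genes. For number 1 the log2 differences ran from −0.52 in Gimap8 to −0.02 in Gimap9 with a median of −0.21. For number 3 they ran from −0.98 in Gimap6 to −0.41 in Gimap1 with a median of −0.63. In the middle of the order the direction was reversed for 7 of the 8. The library labelled Kdm6b-deficient replicate 1 minus control replicate 3 gave a median of 0.10, from −0.003 in Gimap6 to 0.30 in Gimap3. Libraries of a genotype also differed. Control replicate 3 lay below control replicate 1 by a median log2 difference of −0.35, and in the libraries labelled Kdm6b-deficient replicate 3 lay below replicate 1 by a median of −0.79.

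**Figure D2:**
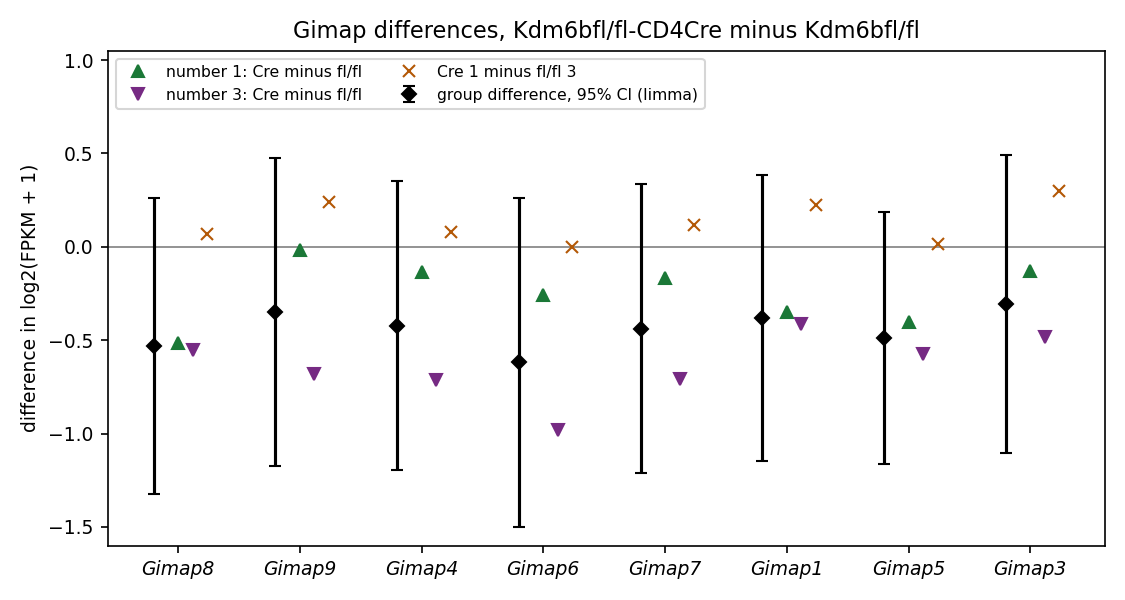
Differences in log2(FPKM + 1), Kdm6b-deficient (Cre) minus control (fl/fl), for each Gimap gene. Black diamonds with bars are the group difference and its 95% CI from limma, triangles are the differences between same-numbered libraries, and crosses are the library labelled Kdm6b-deficient replicate 1 minus control replicate 3. Every interval spans 0, the triangles lie below 0, and 7 of the 8 crosses lie above it.

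Summed over the 8 genes, Gimap transcripts had 2746 and 2190 FPKM in control replicates 1 and 3 (2468 ± 393, mean ± SD, n = 2). They had 2392 and 1363 FPKM in the Kdm6b-deficient-labelled libraries replicates 1 and 3 (1877 ± 728, n = 2). The group means of log2(FPKM + 1) of this sum differed by −0.44. The larger of the Kdm6b-deficient values lay between the 2 control values. As a share of all FPKM, the family took 0.475% and 0.356% in the controls and 0.397% and 0.211% in the libraries labelled Kdm6b-deficient. The makeup of that sum varied far less than its size. Gimap4 made up 26.0% to 28.1% of it in the 4 libraries, Gimap7 11.6% to 12.01%, and Gimap8 1.07% to 1.35%. The share of Gimap6 was 21.3% and 22.4% in the controls and 20.5% and 18.2% in the libraries labelled Kdm6b-deficient, the lower pair belonging to the latter. The share of Gimap3 separated the groups the other way, with 16.3% and 15.2% in the controls and 17.1% and 17.5% in the libraries labelled Kdm6b-deficient. These 2 shares were named after their values were seen, and those of the remaining members overlapped between the groups. With 2 libraries in each group, no difference in makeup between the groups is read from them.

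FPKM are scaled to length, so members can be ranked against each other. Their order was Gimap4, Gimap6, Gimap3, Gimap1, Gimap7, Gimap9, Gimap5 and Gimap8 in 3 of the 4 libraries. In control replicate 3, Gimap7 (263 FPKM) stood just above Gimap1 (251 FPKM), and these neighbours did not differ beyond the spread of their libraries. The ranges of Gimap3 and Gimap1 also overlapped in both groups, and in the libraries labelled Kdm6b-deficient so did those of Gimap4 and Gimap6 and of Gimap6 and Gimap3. From Gimap7 down to Gimap8, neighbours in this order did not overlap within either group. In the libraries labelled Kdm6b-deficient, however, the lower Gimap7 value (160.45 FPKM) and the higher Gimap9 value (160.38 FPKM) were nearly the same. Gimap4 was the 84th and 126th most abundant gene in control replicates 1 and 3, and the 116th and 245th in the libraries labelled Kdm6b-deficient replicates 1 and 3. Of the 8 members, 5 were among the 500 most abundant genes in each of 3 libraries, and 3 in the library labelled Kdm6b-deficient replicate 3.

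Set against the T cell receptor and CD45 transcripts described above, the differences between libraries became smaller. Per 100 FPKM of the geometric mean of Cd3d, Cd3e, Cd3g and Ptprc, the family sum was 429.9 and 422.5 FPKM in control replicates 1 and 3. It was 461 and 367 FPKM in the Kdm6b-deficient-labelled libraries replicates 1 and 3, which hold both the highest and the lowest of the 4 values. Gimap5 had 16.3 and 15.03 against 15.2 and 14.0, and Gimap1 had 58.4 and 48.4 against 56.5 and 50.7, in the same order of libraries. Gimap6 departed most, with 91.7 and 94.6 in the controls, 94.4 in the library labelled Kdm6b-deficient replicate 1 and 66.9 in replicate 3. On this scale Gimap6 was therefore alike in 3 libraries and lower in 1. When the limma fit was repeated with libraries scaled to these 4 genes, the median log2 fold change of the family was −0.04 (range −0.23 to 0.08), while the median of all genes moved to 0.35, so that all 8 members lay below it. With the epithelial score as a covariate the family median was 0.01, and 4 of 8 members were below 0.

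**Figure D3:**
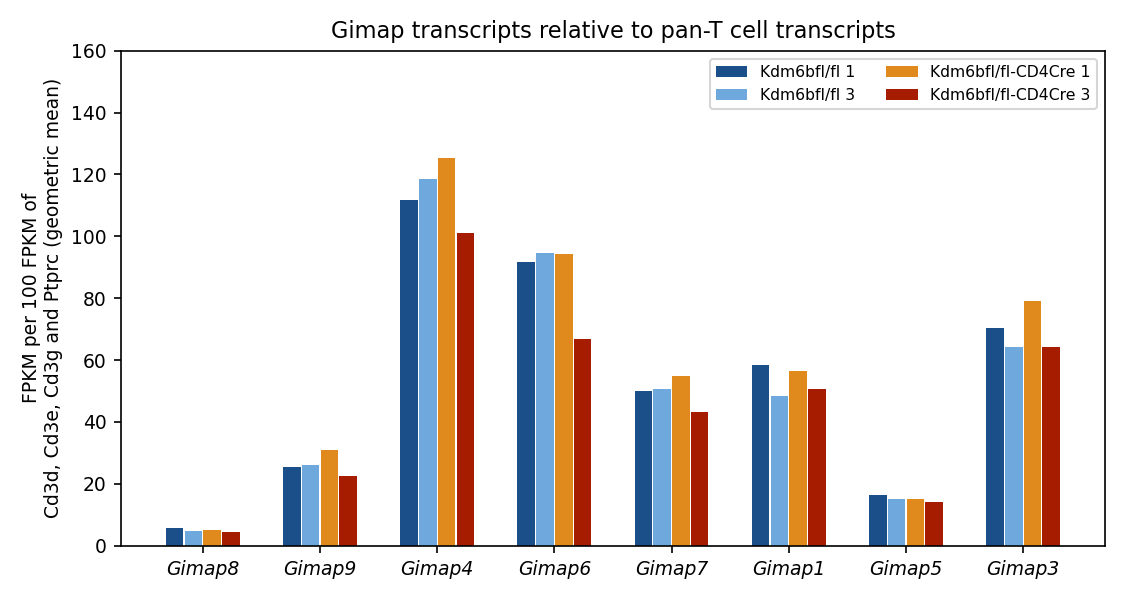
FPKM of each Gimap gene per 100 FPKM of the geometric mean of Cd3d, Cd3e, Cd3g and Ptprc, with 1 bar per library (blues, control Kdm6bfl/fl; orange and red, Kdm6bfl/fl-CD4Cre). Gimap6 falls from 91.7 to 94.6 in 3 libraries to 66.9 in the library labelled Kdm6b-deficient replicate 3, whereas Gimap5 lies between 14.0 and 16.3 in all 4.

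The 22 genes of a T cell and IEL identity list, all tested, shared much of this profile. Their median log2 fold change was −0.53, 21 were negative (49.9% of all genes), and 12 lay lower in both Kdm6b-deficient-labelled libraries (18.6% of all genes). Gzma and Cd7, a granzyme and a T lineage surface protein with the highest FPKM of the list, had log2 fold changes of −0.47 and −0.50. Gzmb, another granzyme, had 3378 and 2488 FPKM in the controls and 1515 and 1279 FPKM in the Kdm6b-deficient-labelled libraries (log2 fold change −1.06, SE 0.29, adjusted p = 0.755 from limma). Klrd1, the CD94 receptor subunit, had 136 and 118 FPKM against 59.6 and 58.7 FPKM (log2 fold change −1.08, SE 0.17, adjusted p = 0.755). Unlike the Gimap genes, both were about equally low in the 2 libraries labelled Kdm6b-deficient. Relative to control replicate 3, the library labelled Kdm6b-deficient replicate 1 had a median log2 difference of −0.02 over the identity list and 0.10 over the Gimap genes.

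**Figure D4:**
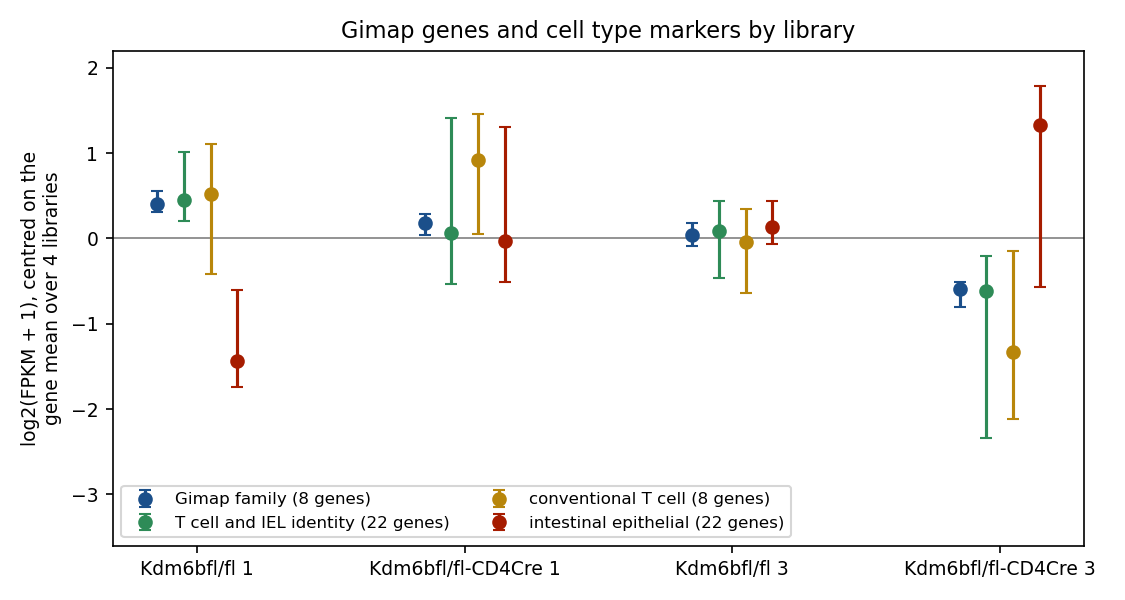
log2(FPKM + 1) centred on each gene's mean over the 4 libraries, for the tested genes of 4 lists, with the median as a point and the lowest and highest gene as bars. The Gimap median goes from 0.403 in control replicate 1 to −0.591 in the library labelled Kdm6b-deficient replicate 3, close to the T cell and IEL identity list (0.45 to −0.611), while the epithelial median goes from −1.432 to 1.332.

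Markers of other cell types were read beside the Gimap genes, although the sort for CD45+CD4-TCRβ+CD8α+CD8β- cells would remove epithelial, endothelial, myeloid, B, NK and CD4+ T cells. Of the 22 epithelial markers, all tested, 18 had a log2 fold change above 1 (6.2% of genes), 3 were higher in both libraries labelled Kdm6b-deficient (Tff3, Krt18 and Cldn3), and the median was 1.29. Krt8, an epithelial keratin, had 275 and 987 FPKM in the controls and 875 and 2518 FPKM in the Kdm6b-deficient-labelled libraries. Of the 12 myeloid markers 9 were tested, with a median of 0.47, and 6 were higher in both libraries labelled Kdm6b-deficient (18.4% of genes). Lyz2 and Cd68, made by macrophages, had log2 fold changes of 0.71 and 0.59. Of the 9 conventional T cell markers 8 were tested, with a median of −0.39. Cd5, a surface receptor that is low on these IELs, had 37.0 and 19.3 FPKM in the controls and 37.9 and 3.38 FPKM in the Kdm6b-deficient-labelled libraries, a log2 fold change of −1.09. Cd28, a costimulatory receptor, had 29.6 and 15.6 against 48.8 and 3.28 FPKM, and Cd4, whose protein the sort gated out, had 30.6 and 10.1 against 30.5 and 3.17 FPKM. B cell, endothelial, and NK cell and ILC1 lists had 3 of 10, 2 of 12 and 3 of 8 genes tested. The B cell sums were 34.2 to 42.6 FPKM, mostly from Cd79b, with Ms4a1 at 0.83 FPKM or less, and the endothelial sums 11.2 to 15.8 FPKM, mostly from Pecam1, with Kdr at 0.22 FPKM or less. The NK cell and ILC1 sums were 255 and 204 FPKM in the controls and 209.7 and 132 FPKM in the Kdm6b-deficient-labelled libraries. Cd244a made up most of them, with 216 and 174 against 165 and 109 FPKM, lower in both libraries labelled Kdm6b-deficient (18.6% of genes). Klrb1c, the next highest, had 24.2 and 17.1 against 27.2 and 17.8 FPKM. The median log2 fold change of the 3 genes tested was −0.43. What part these other cells had in the Gimap values was not tested.

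Partners of the Gimap proteins gave a mixed picture, with 0 genes past the adjusted p in any list. In the Bcl-2 family 14 of 15 genes were tested, with a median of −0.16. Its most abundant members, the pro-survival Bcl2a1b and the pro-apoptotic Bax, had log2 fold changes of −0.17 and −0.03. Of the 14, 3 were lower in both libraries labelled Kdm6b-deficient and 2 higher in both, near the 18.6% and 18.4% of all genes. Named after their values were seen, the lower genes were Bcl2 (−0.61), which holds apoptosis in check, and Bcl2l11 (−0.63) and Bmf (−0.39), which promote it. The higher ones were Pmaip1 (0.78) and Bcl2a1a (0.46). Bcl2 had 114 and 91.7 FPKM in the controls and 78.2 and 56.6 FPKM in the Kdm6b-deficient-labelled libraries (SE 0.23, adjusted p = 0.755 from limma).

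Among autophagy and lysosome genes all 16 were tested, with a median of −0.07. Sqstm1 and Map1lc3b, a cargo receptor and an autophagosome membrane protein, had log2 fold changes of −0.41 and −0.26. Gabarapl2, the partner of Gimap6, had 107 and 112 FPKM in the controls and 111 and 84.1 FPKM in the Kdm6b-deficient-labelled libraries, a log2 fold change of −0.18 (SE 0.20, adjusted p = 0.839). The related Gabarap was listed at 0.35 and 0 FPKM in the controls and at 5.31 and 1.98 FPKM in the Kdm6b-deficient-labelled libraries. Most cells express Gabarap, so values this low may be failed estimates and no fold is given. In this list 5 genes were lower in both libraries labelled Kdm6b-deficient (Sqstm1, Map1lc3b, Gabarapl1, Atg12 and Ulk1) and 5 higher in both (Lamp1, Lamp2, Ctnnb1, Atg7 and, with that caution, Gabarap), where 18.6% and 18.4% of all genes were.

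In a list for T cell quiescence and homeostasis 20 of 22 genes were tested, with a median of −0.09. Klf6 and Btg2, its most abundant genes, had log2 fold changes of 0.13 and 0.19. Klf3, a transcription factor, had 5.26 and 5.68 FPKM in the controls and 13.7 and 10.4 FPKM in the Kdm6b-deficient-labelled libraries (log2 fold change 1.003, SE 0.28, adjusted p = 0.755 from limma). Its relative Klf2 was also higher in both (0.65), whereas Tcf7, Foxp1, Tsc1, Tsc2 and Pik3ip1 were lower in both (−0.78 to −0.33). These are 2 and 5 of the 20 genes, against 18.4% and 18.6% of all genes. The list's median log2 difference between the library labelled Kdm6b-deficient replicate 1 and control replicate 3 was 0.52, against 0.10 for the Gimap genes. Of 16 interferon-inducible GTPases, 14 were tested, with a median of −0.20. Gbp4 and Gbp8, guanylate-binding proteins of cell-autonomous defence, had log2 fold changes of −0.25 and −0.50, Gbp8 and Irgm2 were lower in both libraries labelled Kdm6b-deficient, and Gbp5 was higher in both.

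The 8 genes lie within 123.7 kb of chromosome 6 (48647186 to 48770851 of GRCm38). Of the 5 protein-coding genes on each side, 6 of 10 were tested. Before Gimap8, Repin1 and Zfp775, which encode zinc finger proteins, had log2 fold changes of −0.66 and −0.44, each lower in both Kdm6b-deficient-labelled libraries, and Lrrc61 had −0.23. Beyond Gimap3, Tmem176b and Tmem176a, which encode membrane proteins best known from myeloid cells, had log2 fold changes of 0.62 and 0.83 and were higher in both. Aoc1, the diamine oxidase of the gut epithelium, had 9.85 and 28.0 FPKM in the controls and 19.9 and 87.5 FPKM in the Kdm6b-deficient-labelled libraries, a log2 fold change of 1.28. No neighbour passed limma at an adjusted p under 0.05 (0.755 to 0.861). With 3 genes tested on each side, and 49.9% of all genes below 0, 18.6% lower in both and 18.4% higher in both, no boundary of the cluster is read from these signs.

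**Figure D5:**
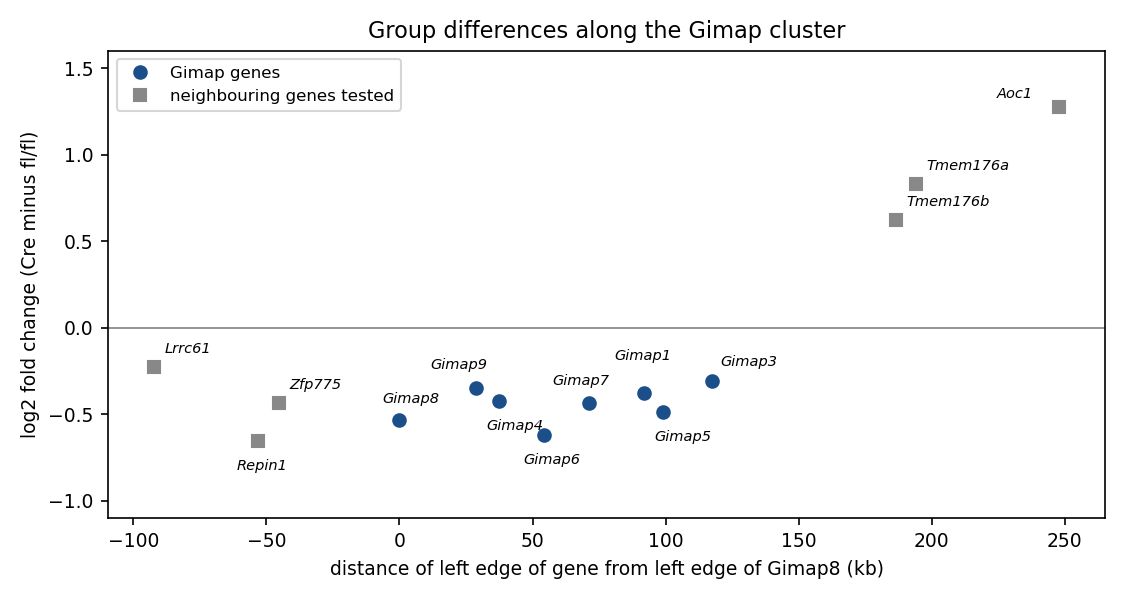
log2 fold change, Kdm6b-deficient (Cre) minus control (fl/fl), of the 8 Gimap genes (circles) and the 6 neighbouring genes tested (squares) against the distance in kb of each gene's left edge from that of Gimap8. The Gimap genes lie between −0.62 and −0.31, and the neighbours run from −0.66 (Repin1) to 1.28 (Aoc1).

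Since the members moved together, their promoters were searched for 5 motifs on both strands, in windows of 250 bases before to 50 after the start site (RefSeq, GRCm38.p6). The 8 genes had 9 such windows, Gimap8 having 2 that overlap. TGTGGT, the core bound by Runx factors, was in the windows of 3 genes, Gimap1, Gimap4 and Gimap7, against 16.8% of 32851 promoters. TGTTTAC, a Fox motif, was in that of Gimap3 alone (3.65% of promoters), and GGTGTGA, a T-box motif, in both of Gimap8 (3.98%), which share the stretch. CCGGAA, an Ets core, and an NF-κB motif were in none, against 14.9% and 1.63%. A match of letters describes the sequence and shows no binding. The stretches around the Runx cores are printed since that motif was found in the most members. Each is on the + strand, upstream of the start site, with the reverse complement of TGTGGT in capitals.
Gimap4, chr6:48684406-48684465: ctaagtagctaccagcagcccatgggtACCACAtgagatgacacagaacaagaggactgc
Gimap7, chr6:48718515-48718574: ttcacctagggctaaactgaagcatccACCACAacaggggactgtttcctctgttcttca
Gimap1, chr6:48738925-48738984: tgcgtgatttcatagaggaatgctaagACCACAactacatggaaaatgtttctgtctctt

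The Runx core began 145 bases before the start site in Gimap4, 79 in Gimap7 and 95 in Gimap1. The log2 fold changes of these 3 genes (−0.44 to −0.38) lay inside the range of the 5 genes without it. The windows held 2 to 8 CpG each with a median of 4, against a median of 7 over all promoters, 54.2% of which held at most 8.

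Genes with a profile like that of the family were sought among 6884 genes with a mean of at least 10 FPKM, by the root mean square distance over the 4 libraries from the members' mean centred log2 profile. The nearest were 2 predicted transcripts without a symbol, BGI_novel_G000478 (distance 0.0114) and BGI_novel_G000135 (0.025), followed by Gna13 (0.0276), Ints8 (0.0289) and Sh2d2a (0.0308). Gna13, a G protein subunit, had 79.2 and 59.6 FPKM in the controls and 65.9 and 40.0 FPKM in the Kdm6b-deficient-labelled libraries. Sh2d2a, a T cell adaptor, had 501 and 365 against 415 and 246 FPKM, and Ints8, a subunit of the Integrator complex, had 24.6 and 19.5 against 20.3 and 12.02 FPKM. The members' own distances were 0.0395 to 0.123, and 181 of the 6884 genes lay within 0.1. The profile rests on 4 libraries.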

How the data were processed

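RNA-seq libraries of sorted TCRαβ+CD8αα+ IELs, 2 control and 2 Kdm6b-deficient, were analysed. The authors aligned clean reads by HISAT and Bowtie2 against mm10, and RSEM gave the FPKM values they deposited. The submitters' processing notes name Bowtie2 2.2.5, RSEM 1.2.8 and GRCm38.p5. Total reads are not given, so depth is unknown beyond a rough relative scale of 0.872 to 1.08, from the steps between low values. Totals were 578491 to 646671 FPKM per library.

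Values were used as log2(FPKM + 1) for the 12009 of 19339 genes that reached 1 FPKM in 2 or more libraries. Groups were compared with limma 3.58.1 (R 4.3.3, lmFit, eBayes with a trend, 3.52 prior degrees of freedom), adjusted by Benjamini-Hochberg over all genes tested, and the model was tested on simulated data. A fold change on this scale understates that of low genes. Nothing says whether pools of like number were prepared together, and p-values measure the spread between these pools of mice. Symbols came from RefSeq (18467 identifiers matched), transcripts from GENCODE vM21. Motifs and P-loops were searched in Python 3.11.15 with pandas 2.3.3 and numpy 2.4.6.

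The members and gene lists were chosen with earlier results of these data known. Named genes were the Gimap genes, Kdm6b, the cluster's neighbours, the members of each list with a log2 fold change beyond 1 and its 2 highest in FPKM, and the 5 genes nearest in profile. Of the marker lists only some of these are printed, and a γδ T cell list and some marker genes are not reported here. Other list genes (those lower or higher in both Kdm6b-deficient libraries, Gabarapl2, Cd4 and defining markers) were named after their values were seen. Alternatives were the pseudocount, filter, scaling, an epithelial covariate, the replicate block, limma without a trend, the ratio of means and leaving out each library.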

Additional observations from a re-analysis of the deposited data

How the results depend on the processing

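No setting gave a Gimap gene an adjusted p under 0.05 in limma. The family median (−0.43) stayed negative under every setting but 2. It was 0.113 after scaling to the T cell and IEL identity list, an alternative chosen after seeing the data, and 0.00873 with the epithelial score as a covariate. Under that T cell scaling the median of all genes moved to 0.49, and all 8 members lay below it. Scaling to the Cd3 genes and Ptprc turned Gimap1 (0.0101), Gimap3 (0.084), Gimap9 (0.039) and Kdm6b (0.186) positive. Scaling to the identity list turned Gimap1 (0.16), Gimap3 (0.24), Gimap4 (0.12), Gimap5 (0.0499), Gimap7 (0.11), Gimap9 (0.19) and Kdm6b (0.33) positive, and the epithelial covariate Gimap1 (0.14), Gimap3 (0.21), Gimap7 (0.0233), Gimap9 (0.14) and Kdm6b (0.11). The count of members lower in both Kdm6b-deficient libraries (1) was 0 under quantile normalization and both T cell scalings.

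Leaving out each library in turn gave family medians of −0.82 (without Kdm6b-deficient replicate 1) to −0.05 (without Kdm6b-deficient replicate 3), and 1 to 8 members lower in both, with 8 without control replicate 3 (36.5% of genes) or Kdm6b-deficient replicate 1 (39.4%) and 1 without control replicate 1 (28.6%) or Kdm6b-deficient replicate 3 (30.1%). In these fits Gimap3 ran from −0.697 to 0.0836, Gimap9 from −0.811 to 0.112 and Kdm6b from −0.515 to 0.157, positive without Kdm6b-deficient replicate 3. The lone library of a group was assumed to vary like the other group.

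Over all genes, the count at an adjusted p under 0.05 (0) became 1 with the identity list scaling and 55 with the epithelial covariate. The count with a log2 fold change beyond 1 (797) became 1381 and 1451 with pseudocounts of 0.1 and 0.01, 1432 and 1792 with the Cd3 and identity list scalings, 459 with the covariate, 1314 with the ratio of means, and 364 to 1577 without 1 library. The causes of these shifts were not tested.

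With the replicate block, 1019 genes had an adjusted p under 0.05, 133 of them lower, and 0 of the 8 Gimap genes did. Their adjusted p then ran from 0.0528 (Gimap6) to 0.259 (Gimap9). Same-numbered libraries deviated together with a correlation of 0.56 across genes, but the labels state no pairing and there are 2 pairs.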
